A study of Mus musculus with 6 samples.

Results

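Among the transcripts counted in sorted liver macrophages, 8 that mark B cells and plasma cells were followed here: Jchain, Mzb1, Ighm, Igkc, Ebf1, Cd79a, Cd79b and Ms4a1. They were taken by gene symbol from a table of 15458 rows. Of the 8, 6 had a row and all 6 were tested, while Ighm and Igkc, the constant regions of the IgM heavy chain and of the kappa light chain, were not analysed here. The libraries held polyA RNA of flow-sorted Kupffer cells, which are macrophages that live in the liver sinusoids, taken on day 18 after Hepa1-6 tumour cells, a mouse hepatoma line, were implanted into wild type mice. In the KC_EV group the tumour cells carried the empty vector, and in the KC_Epo group they overexpressed erythropoietin, the hormone that drives red cell formation. Each group had 3 libraries. No source used here gives strain, age, sex, sort gates or any pooling of mice, and the labels number the mice without tying each library to its own animal, so p-values measure only the spread between these libraries.

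A B cell carries an antibody on its surface, and the paired chains CD79A and CD79B pass the signal of that receptor into the cell. When a B cell becomes a plasma cell it turns off much of the B cell programme and secretes antibody, which needs a large endoplasmic reticulum, the chaperone-like protein MZB1 and, for IgM pentamers and IgA dimers, the joining chain JCHAIN. EBF1 is a transcription factor that sets up the B cell lineage, and MS4A1 is the surface protein CD20. Neither cell type is a Kupffer cell, although the sinusoid where Kupffer cells sit also holds lymphocytes.

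Total counts ran from 23201076 to 33280754 per library, and levels are given as CPM, counts scaled to the library total and TMM factor. Kupffer cell markers were high in every library, Clec4f standing at 6400 ± 186 CPM (SD, n = 3) in the controls and at 11032 ± 863 CPM under erythropoietin. The 6 transcripts together took 0.0123 to 0.0127% of the counts of a KC_EV library and 0.0141 to 0.0162% of those of a KC_Epo library. Epo itself was read 29, 44 and 21 times in KC_Epo 1 to 3, and its count was 0 in all controls. Of 13120 genes tested, 32.3% passed an adjusted p of 0.05 in the edgeR quasi-likelihood test, 16.9% higher and 15.4% lower in KC_Epo. Without KC_Epo 3 the number that passed went from 4234 to 2728. The groups did not overlap for 48.3% of genes.

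Both plasma cell transcripts, Jchain and Mzb1, rose in KC_Epo. Of the B cell transcripts Ebf1 fell, and Cd79a, Cd79b and Ms4a1 had negative log2 fold changes that did not pass the test. Thus 3 of 6 were called, against 32.3% of all genes, and a share over 6 genes does not set them apart. Groups did not overlap for 5 of 6, with 2 higher and 3 lower, against 48.3% of all genes. The number called was 2 without KC_EV 2, KC_EV 3 or KC_Epo 3 and 5 without KC_Epo 2. In a bulk library, fewer cells of a type and less RNA per cell cannot be told apart.

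The stretches before the start sites of Jchain and Cd79a are shown because these transcripts mark the plasma cell and the B cell side and differed in response. Both are the 250 bases upstream of the annotated start, 5′ to 3′, from RefSeq on build GRCm38.p6, which is not the build named for the counts. The Jchain stretch is chr5:88527898-88528147 on the minus strand and the Cd79a stretch is chr7:24897247-24897496 on the plus strand. Capitals mark matches, on either strand, to motifs of factors known in lymphocytes.
Jchain: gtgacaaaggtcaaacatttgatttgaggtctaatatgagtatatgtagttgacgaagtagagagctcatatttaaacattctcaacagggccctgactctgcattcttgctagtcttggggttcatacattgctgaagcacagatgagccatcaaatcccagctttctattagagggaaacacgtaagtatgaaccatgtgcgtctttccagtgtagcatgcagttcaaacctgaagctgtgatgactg
Cd79a: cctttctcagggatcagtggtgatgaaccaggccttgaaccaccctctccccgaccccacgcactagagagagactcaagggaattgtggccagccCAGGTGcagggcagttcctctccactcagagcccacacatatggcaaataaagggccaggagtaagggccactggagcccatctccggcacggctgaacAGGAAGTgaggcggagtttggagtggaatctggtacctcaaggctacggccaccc
The Cd79a stretch held an E-box, CAGGTG, from base -154 to -149 and an ETS core, AGGAAGT, from base -55 to -49, counted back from the start. Over 32851 promoters of the same length, with a whole chromosome left out, 17.2% held this E-box and 7.69% this ETS core. The Jchain stretch held neither, and it held no octamer (ATGCAAAT, in 1.6% of promoters), no EBF core (CCCNNGGG, in 11.8%), no interferon-stimulated element (in 2.98%) and no TATA sequence (TATAAA, in 12.4%). The Cd79a stretch held no octamer, EBF core, interferon-stimulated element or TATA sequence either. The searched words do not overlap one another in the Cd79a stretch, and a match is a description of letters only. No other forms of the motifs were searched, so unmarked bases are not shown to lack sites of these factors. With the same chromosome left out, the RefSeq promoter table matched 3 of the 8 genes, Ebf1 being the third.

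Jchain, the joining chain that links IgM and IgA units, stood at 17.0, 14.9 and 14.8 CPM in KC_EV 1 to 3, and at 108, 50.2 and 69.3 CPM in KC_Epo 1 to 3. Every KC_Epo library was above every KC_EV library, and the spread was wide only in KC_Epo, where the highest library was 2.16 times the lowest. From 15.5 ± 1.24 to 75.9 ± 29.6 CPM (SD, n = 3 each), the log2 fold change was 2.29 ± 0.33 (SE) with an edgeR adjusted p of 0.00769, or 4.89-fold. The reads behind it were 538, 465 and 500 counts in KC_EV and 3367, 1559 and 1520 counts in KC_Epo. Leaving out any library kept the call, with log2 fold changes of 1.95 without KC_Epo 1 to 2.53 without KC_Epo 2, and the adjusted p came as high as 0.0444 without KC_EV 2.

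Mzb1, an endoplasmic reticulum protein that helps assemble and secrete IgM, was at 4.95, 5.75 and 3.92 CPM in the KC_EV libraries and at 10.3, 8.59 and 9.07 CPM in KC_Epo. The groups did not overlap and the KC_Epo libraries lay close together, within 1.2 times of each other. The mean went from 4.88 ± 0.92 to 9.33 ± 0.89 CPM (SD, n = 3 each), a log2 fold change of 0.94 ± 0.19 (SE) with an edgeR adjusted p of 0.00299, or 1.91-fold. In the GENCODE M21 annotation a longer same-strand model, SPATA24, covers 57.2% of the Mzb1 exons, and no source used here says how such reads were counted. Spata24, a row whose name differs from that model only in letter case, did not pass, at -0.41 ± 0.35 on the log2 scale (edgeR adjusted p = 0.396). Whether that row holds reads of the model is not given.

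Ebf1, the B lineage transcription factor, went the other way. It stood at 4.004, 4.96 and 4.69 CPM in the KC_EV libraries and at 1.57, 2.90 and 2.46 CPM in KC_Epo, with 49 to 159 counts per library. All KC_Epo libraries were below all KC_EV libraries, with KC_Epo 1 lowest. The log2 fold change was -0.98 ± 0.28 (SE) with an edgeR adjusted p of 0.0191. The call was lost without KC_EV 2 (-0.91, adjusted p = 0.0747), KC_EV 3 (-0.95, adjusted p = 0.0655) or KC_Epo 3 (-1.02, adjusted p = 0.0563). Mesenchymal cells of the liver can also hold Ebf1 transcript. Of their 13 markers 5 fell and 1 rose, with the collagen gene Col1a1 at 23.2 to 27.8 CPM in the KC_EV libraries and 3.93 to 5.50 CPM in KC_Epo. Their summed level ran from 247 to 279 CPM in KC_EV and from 218 to 266 CPM in KC_Epo. The largest part of it was Ecm1, the marker that rose, at 110 to 130 CPM in KC_EV and 157 to 167 CPM in KC_Epo. The part of these cells in the fall of Ebf1 was not tested.

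Cd79a and Cd79b, the signalling chains of the receptor, did not pass. Cd79a was at 31.8, 34.6 and 34.3 CPM in the KC_EV libraries and at 18.4, 36.1 and 25.5 CPM in KC_Epo, so that KC_Epo 2 lay above all controls and the groups overlapped. Its log2 fold change of -0.33 ± 0.24 did not pass (edgeR adjusted p = 0.336), with a 95% interval of -0.90 to 0.24. Without KC_Epo 2 it passed, at -0.61 (adjusted p = 0.0031), and without KC_Epo 1 it was -0.11 (adjusted p = 0.542). Cd79b was at 45.6, 42.7 and 47.0 CPM in the KC_EV libraries and at 24.5, 41.7 and 40.3 CPM in KC_Epo. All KC_Epo libraries lay below the controls, 2 of them by little, and the log2 fold change of -0.35 ± 0.20 did not pass (adjusted p = 0.236, interval -0.83 to 0.14).

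Ms4a1, which encodes CD20, was at 14.4, 16.0 and 12.5 CPM in the KC_EV libraries and at 5.56, 12 and 9.75 CPM in KC_Epo. The groups did not overlap, KC_Epo 2 being just under KC_EV 3. Its log2 fold change of -0.65 ± 0.26 did not pass the edgeR test (adjusted p = 0.0834) but passed with DESeq2 (-0.65, adjusted p = 0.0233), with limma-voom (-0.73, adjusted p = 0.0487), with library sizes only (-0.82, adjusted p = 0.0317) and without KC_Epo 2 (-0.91, adjusted p = 0.00759).

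**Figure D1:**
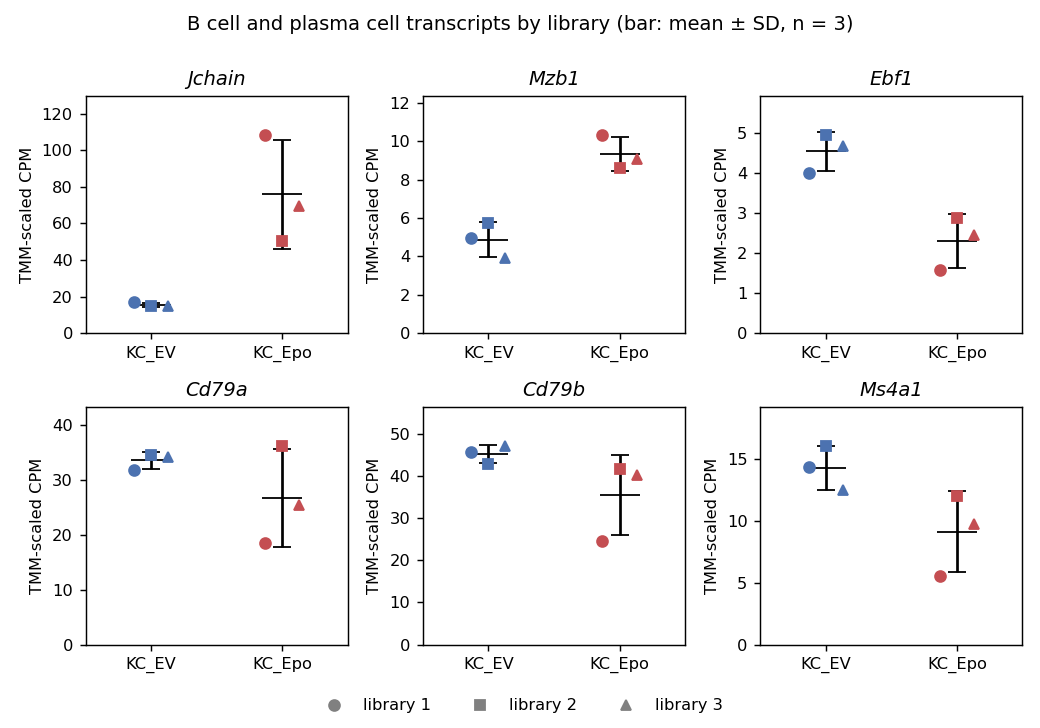
Level of each of the 6 transcripts in TMM-scaled CPM (y axes start at 0) for the KC_EV and KC_Epo libraries, with bars for mean ± SD of 3 libraries and 1 marker shape per library number. Jchain and Mzb1 stand above all controls, and for Ebf1, Cd79a, Cd79b and Ms4a1 KC_Epo 1 is the lowest library and KC_Epo 2 the highest of its group.

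Levels of different genes were compared per kilobase of exon, using exon lengths from GENCODE M21 on GRCm38. In KC_EV the order was Cd79b at 31.5 ± 1.52, Cd79a at 23 ± 1.04, Jchain at 6.17 ± 0.49, Mzb1 at 4.01 ± 0.76, Ms4a1 at 2.31 ± 0.29 and Ebf1 at 0.47 ± 0.05 CPM per kilobase (SD, n = 3), and no neighbours in it overlapped. In KC_Epo Jchain came first at 30.1 ± 11.8, before Cd79b at 24.8 ± 6.67 and Cd79a at 18.3 ± 6.1 CPM per kilobase. Those upper 3 overlapped between libraries, whereas Mzb1 at 7.68 ± 0.73, Ms4a1 at 1.47 ± 0.53 and Ebf1 at 0.24 ± 0.07 CPM per kilobase stood apart below them.

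Ratios of counts within a library do not depend on scaling between libraries, and they are read here only between libraries, since they are not corrected for length. The ratio of Jchain to Cd79a was 0.533, 0.43 and 0.431 in KC_EV and 5.87, 1.39 and 2.72 in KC_Epo, 7.16-fold higher between the means, with no overlap. Mzb1 to Cd79a went from 0.156, 0.166 and 0.115 to 0.559, 0.238 and 0.356, again with no overlap. Both ratios were highest in KC_Epo 1 and, within KC_Epo, lowest in KC_Epo 2. The ratio of Jchain to Mzb1 was 2.58 to 3.76 in KC_EV and 5.84 to 10.5 in KC_Epo, also with no overlap.

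Among the B cell transcripts the ratios moved less. Cd79b to Cd79a, partners in the receptor, was 1.43, 1.24 and 1.37 in KC_EV and 1.33, 1.15 and 1.58 in KC_Epo, overlapping, with means of 1.35 and 1.36. Ms4a1 to Cd79a overlapped too, at 0.364 to 0.463 and 0.301 to 0.383. Ebf1 to Cd79a did not overlap, at 0.126 to 0.143 and 0.0802 to 0.0966, so Ebf1 was lower even per count of Cd79a.

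**Figure D2:**
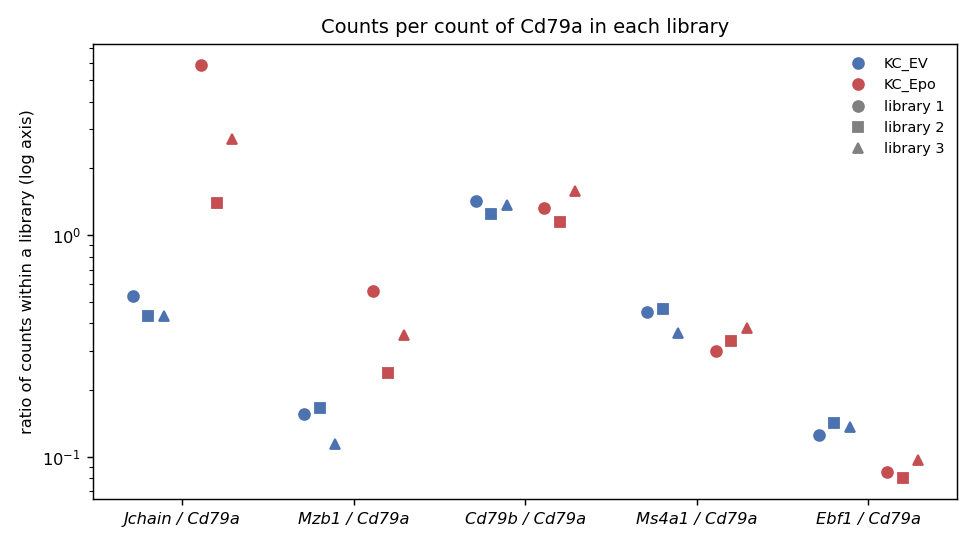
Ratio of the counts of each transcript to those of Cd79a in the same library (y axis, log scale), with blue for KC_EV, red for KC_Epo and 1 marker shape per library number. Jchain and Mzb1 lie higher in all KC_Epo libraries, Ebf1 lies lower in all of them, and Cd79b and Ms4a1 overlap between groups.

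Other genes of B cell identity were read next. Of 13 tested, 1 rose, 3 fell and 9 did not pass, against 16.9% and 15.4% of all genes, and 10 of 13 had a log2 fold change below 0. The median was -0.51, against -0.0045 over all genes tested. Tnfrsf13c, the BAFF receptor that keeps mature B cells alive, fell by 1.00 on the log2 scale (an edgeR adjusted p = 0.0179). Spib, an ETS transcription factor, fell by 0.78 (adjusted p = 0.0219) and Fcrla, a B cell Fc receptor-like protein, by 0.63 (adjusted p = 0.0375). Cd22, an inhibitory co-receptor, rose by 0.28 ± 0.08 (adjusted p = 0.0207), a call lost with upper quartile factors (0.22) and library sizes only (0.12) and without KC_EV 1, KC_EV 2 or KC_Epo 2. It stood at 72.3 to 79.2 CPM in KC_EV and 85.3 to 100 CPM in KC_Epo. Whether cells other than B cells held part of the Cd22 transcript was not tested. The Tnfrsf13c call was lost without KC_EV 1, KC_EV 2 or KC_Epo 3 and the Spib call without KC_EV 2, KC_EV 3 or KC_Epo 3. That of Fcrla was lost whichever single library was left out, with adjusted p from 0.053 to 0.151. The number that fell was 0 without KC_EV 2 or KC_Epo 3 and 1 without KC_EV 1 or KC_EV 3.

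Pax5, the factor that holds B cell identity, did not pass. Chosen after its values were seen, it was at 18.1, 20.7 and 17.6 CPM in the KC_EV libraries and at 7.23, 13.7 and 14.9 CPM in KC_Epo with no overlap (edgeR adjusted p = 0.0864), and passed with DESeq2, limma-voom and library sizes only and without KC_Epo 1 (adjusted p = 0.0125 to 0.0374). Bank1, a B cell scaffold protein chosen in the same way, stood at 94.0 to 112 CPM in the KC_EV libraries and 99.0 to 127 CPM in KC_Epo (edgeR adjusted p = 0.184), and passed as higher without KC_Epo 1 (0.28, adjusted p = 0.0197). The 13 genes shared their lowest library within KC_Epo, which was KC_Epo 1 for all 13, against 38.7% of all genes tested. The highest was KC_Epo 2 for 10, against 37% of all genes tested, and KC_Epo 3 for 3. T and NK cell markers had KC_Epo 1 lowest in 10 of 13 cases, and Kupffer cell markers in 9 of 11.

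Signalling genes below the receptor, most of which macrophages use as well, included 1 of 14 that rose and 5 that fell, the median log2 fold change being -0.16. The falls numbered 3 without KC_EV 3 or KC_Epo 3 and 8 with library sizes only. The rises numbered 2 without KC_EV 1. Blnk, the adaptor that joins the receptor to its kinases, fell by 0.63 (edgeR adjusted p = 0.00224), Malt1, a paracaspase of NF-kB activation, by 0.51 (adjusted p = 0.00157) and Syk, the kinase that docks on CD79A and CD79B, by 0.34 (adjusted p = 0.00285). Cd81, a tetraspanin of the B cell surface, rose by 0.44 ± 0.10 (adjusted p = 0.00492). Of 9 surface genes that B cells share with macrophages, 5 fell and 2 rose, and the falls numbered 3 without KC_EV 2 or KC_Epo 3 and 2 without KC_EV 3. Cd86, a co-stimulatory ligand, rose by 0.66 ± 0.07 (adjusted p = 2.93e-05) and Cd53, a tetraspanin of white blood cells, by 0.41 ± 0.08 (adjusted p = 0.00249). Cd83, a surface protein of activated B cells and dendritic cells, fell by 0.42 (adjusted p = 0.00208), and Cd74, the invariant chain of MHC class II, fell from 5796 ± 171 to 2281 ± 493 CPM (SD, n = 3).

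**Figure D3:**
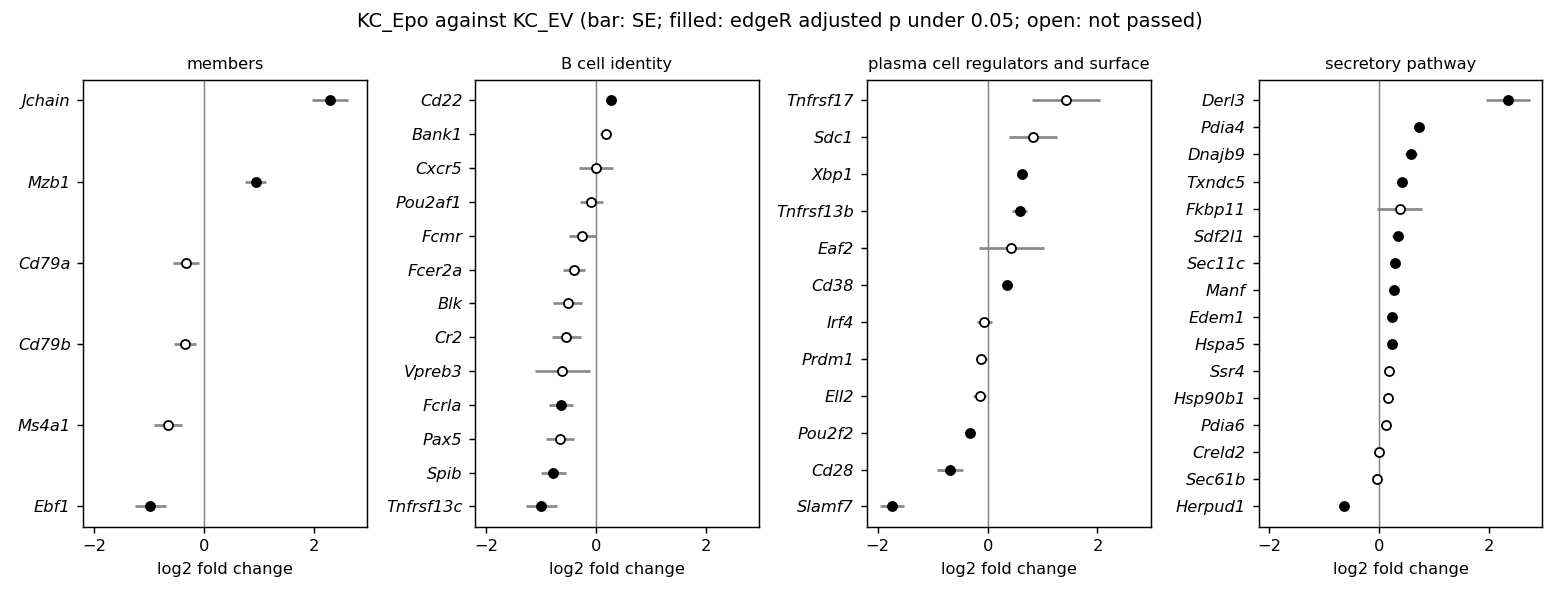
Log2 fold change of KC_Epo against KC_EV (x axes) with its SE for the 6 transcripts and for the tested genes of B cell identity, plasma cell regulation and the secretory pathway, filled where the edgeR adjusted p was under 0.05. Jchain and Derl3 are the genes above 2, and most B cell identity genes lie left of 0 with open symbols.

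Plasma cell regulators and surface receptors did not move as one: of 12 tested, 3 rose and 3 fell, the median log2 fold change being 0.15. Xbp1, the factor that expands the secretory pathway, rose by 0.62 ± 0.07 (edgeR adjusted p = 3.53e-05), Tnfrsf13b, the receptor TACI, by 0.59 ± 0.14 (adjusted p = 0.0065) and Cd38, an ectoenzyme, by 0.36 ± 0.08 (adjusted p = 0.00501). The Cd38 call was lost with library sizes only (0.20, adjusted p = 0.068). Slamf7, a receptor of plasma cells and some myeloid cells, fell by 1.74 (adjusted p = 0.000135). Kupffer cells express several of these, Cd38 standing at 368 to 412 CPM in KC_EV. Prdm1, which drives plasma cell fate, did not pass at -0.12 ± 0.10 (adjusted p = 0.387), though it passed with library sizes only (-0.28, adjusted p = 0.0418), and Irf4, its partner, did not pass at -0.06 ± 0.14 (adjusted p = 0.786).

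Tnfrsf17, the receptor BCMA of plasma cells, gave few reads. Chosen after its values were seen, it had 6, 11 and 8 counts in KC_EV and 36, 16 and 9 counts in KC_Epo. In CPM the groups did not overlap, at 0.19 to 0.35 and 0.41 to 1.16, but the difference did not pass (edgeR adjusted p = 0.0985). Sdc1, the surface marker CD138, which epithelial cells and hepatocytes also carry, was at 5.40 to 10.5 CPM and 8.46 to 21.8 CPM (edgeR adjusted p = 0.213), and passed as higher with DESeq2 (adjusted p = 0.0197) and without KC_Epo 2 (1.12, adjusted p = 0.031).

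Of 16 secretory pathway genes 9 rose and 1 fell, the median log2 fold change being 0.25. Derl3, a component of endoplasmic reticulum degradation that plasma cells hold at high level, went from 27, 13 and 17 counts to 104, 76 and 70 counts. Its log2 fold change was 2.34 ± 0.40 (SE) with an edgeR adjusted p of 0.000959, near that of Jchain. Pdia4, a disulfide isomerase, rose by 0.72 ± 0.09 (adjusted p = 8.43e-05) and Txndc5, another, by 0.40 ± 0.08 (adjusted p = 0.00206), whereas Herpud1, of the stress response of this compartment, fell by 0.64. The rises numbered 5 with upper quartile factors or without KC_EV 2, and 4 with library sizes only or without KC_EV 3 or KC_Epo 3. All cells, Kupffer cells included, use most of this list, and Hspa5 stood at 914 to 1010 CPM in KC_EV.

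Early B cell genes differed in level, and some offered few reads. Vpreb1, part of the surrogate light chain of precursors, had 33 counts over KC_EV and 24 over KC_Epo, and Rag1, of antibody gene rearrangement, had 7 and 5. Of 8 tested genes 0 rose and 2 fell, or 1 without KC_EV 1, KC_EV 2, KC_EV 3 or KC_Epo 3. Those 2 were Cd93 at -1.47 ± 0.16 (edgeR adjusted p = 0.000305) and Sox4 at -0.82 ± 0.25 (adjusted p = 0.0262). Sox4 passed only with all libraries or without KC_Epo 1, and endothelial cells also hold Cd93. Endothelial markers fell in 8 of 12 cases in these libraries, or in 5 without KC_EV 2, KC_EV 3 or KC_Epo 3. Whether these cells account for part of the fall of Cd93 was not tested.

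Plasmacytoid dendritic cells can hold Jchain and Mzb1 transcript, so their markers were read beside them, and the part of these cells in the rise of both was not tested. Siglech, the marker that defines them, was at 2.49, 2.24 and 2.45 CPM in the KC_EV libraries and at 1.51, 1.64 and 1.91 CPM in KC_Epo, which did not pass (edgeR adjusted p = 0.236). Of 12 markers 3 rose and 3 fell, the falls numbering 1 without KC_EV 2, KC_EV 3, KC_Epo 1 or KC_Epo 3. Those that rose were Irf8, Bst2 and Cd300c2, which macrophages also express, at 242 CPM or more in every library. The Cd300c2 call was lost without each single library other than KC_Epo 1, and with upper quartile factors or library sizes only. The summed level was 948 to 992 CPM in the KC_EV libraries and 1096 to 1271 CPM in KC_Epo, most of it from Irf8, Bst2 and Cd300c2. Of the 12 markers 8 had a log2 fold change below 0, the median being -0.52. Tcf4, the transcription factor these cells need, fell by 0.33 on the log2 scale (edgeR adjusted p = 0.00495). It was at 88.4 to 93.8 CPM in the KC_EV libraries and 67.5 to 76.1 CPM in KC_Epo. Whether other cells held part of the Tcf4 transcript was not tested.

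Hepatocyte transcripts rose as Jchain did and shared its library order within KC_Epo, but not within KC_EV. Of 12 hepatocyte markers 10 rose and 0 fell, and none was at 0 in any library. Their summed level was 2629, 3266 and 3004 CPM in KC_EV 1 to 3 and 20864, 6112 and 12490 CPM in KC_Epo 1 to 3. The rises numbered 1 without KC_EV 1, KC_EV 2, KC_EV 3 or KC_Epo 3 and 4 without KC_Epo 1, and 6 with limma-voom. Per 1000 CPM of this sum Jchain stood at 6.45, 4.55 and 4.91 CPM in the KC_EV libraries and 5.19, 8.21 and 5.55 CPM in KC_Epo, overlapping between groups. Mzb1 on that scale was at 1.31 to 1.88 CPM in the KC_EV libraries and 0.494 to 1.41 CPM in KC_Epo, and KC_Epo 1 exceeded KC_Epo 2 by 1.2 times for Mzb1, 1.37 times for Derl3, 2.16 times for Jchain and 3.41 times for the hepatocyte sum. The part of hepatocyte RNA in the rise of Jchain was not tested. Erythroid markers rose in 7 of 7 cases, from sums of 33.5 to 43.1 CPM to sums of 1109, 606 and 811 CPM in KC_Epo 1 to 3. That is the same order within KC_Epo, and the summed endothelial markers had it too, at 3259, 2414 and 2710 CPM. So did the summed mesenchymal markers, at 266, 218 and 241 CPM. The Kupffer cell sum and the T and NK cell sum had the opposite order.

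The summed T and NK cell markers were at 100 to 123 CPM in the KC_EV libraries and 84.6 to 119 CPM in KC_Epo, with 0 of 13 higher and 1 lower, or 2 lower without KC_Epo 2. Of 10 neutrophil markers 0 were higher and 1 was lower, the median log2 fold change being -1.80. The falls numbered 7 without KC_EV 1 and 2 with DESeq2 or a non-robust fit. Mmp9, a gelatinase of neutrophil granules, fell by 1.77 (edgeR adjusted p = 5.72e-05). It was at 10.6, 16.3 and 16.4 CPM in KC_EV 1 to 3 and at 3.57 to 4.86 CPM in the KC_Epo libraries. S100a8, a calcium-binding protein that neutrophils hold at high level, was at 0.63, 21.3 and 40.5 CPM in the KC_EV libraries and at 4.88, 4.67 and 5.33 CPM in KC_Epo, and did not pass (edgeR adjusted p = 0.313). KC_EV 1 lay below the other controls in S100a8, and below all KC_Epo libraries. In Mmp9 the same library lay above all KC_Epo libraries. Whether cells other than neutrophils held part of the Mmp9 transcript was not tested. The summed level was 264 to 481 CPM in the KC_EV libraries and 272 to 332 CPM in KC_Epo, most of it from Csf3r, the receptor of G-CSF.

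**Figure D4:**
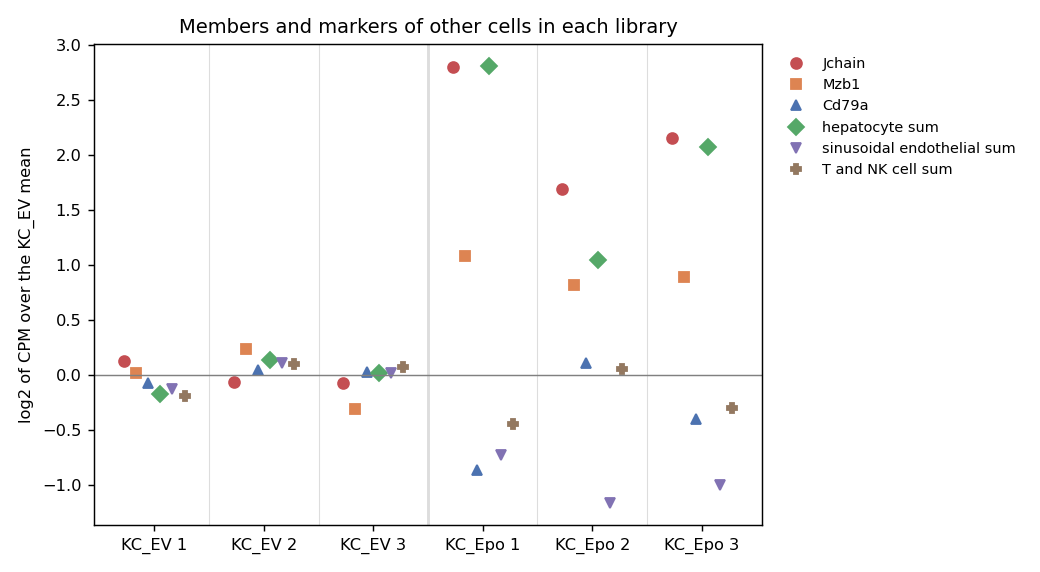
Log2 of the CPM of each library over the mean of the KC_EV libraries (y axis) for Jchain, Mzb1, Cd79a and the summed markers of hepatocytes, sinusoidal endothelial cells and T and NK cells, by library (x axis). In KC_Epo, Jchain and the hepatocyte sum are highest in KC_Epo 1 and lowest in KC_Epo 2, Cd79a and the T and NK cell sum have the opposite order, and the endothelial sum lies below 0 throughout.

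The genes nearest to each transcript were sought over the 6 libraries, as the smallest root mean square difference of mean-centred log2 CPM among 11983 other genes. The 3 nearest to Jchain were Mbl2 at 0.192, Serpina10 at 0.2 and Itih3 at 0.204 log2 units. They encode a mannose-binding lectin, a protease inhibitor and an inhibitor heavy chain of blood plasma, a term unrelated to plasma cells. All 3 were highest in KC_Epo 1 and, within KC_Epo, lowest in KC_Epo 2, as the hepatocyte sum was. Itih3 was at 21.0 to 24.5 CPM in the KC_EV libraries and at 187, 61.1 and 113 CPM in KC_Epo. Nearest to Ebf1 were H2-Oa, a chain of the H2-O regulator of peptide loading, at 0.0901, Sytl1 at 0.0944 and Vsig10 at 0.107 log2 units. H2-Oa was at 7.60, 8.76 and 8.70 CPM in the KC_EV libraries and at 3.28, 4.92 and 4.33 CPM in KC_Epo. Between the transcripts themselves the distance was smallest for Cd79a and Cd79b, at 0.146 log2 units, and Jchain lay 1.43 from Cd79a and 0.702 from Mzb1.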

How the data were processed

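The authors deposited read counts as whole numbers per gene symbol, not normalized, from TruSeq stranded libraries per the labels' protocols. The submitters' processing notes list, with no role or order, STAR 2.7.3a, HTSeq 0.11.2, Bowtie2 2.5.1, FastQC 0.11.8 and the build GRCm39. How reads were assigned to genes is not given there. Where a symbol stood on 2 rows (12 symbols), the larger row was used under it.

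The analysis used edgeR 4.0.16 in R 4.3.3: filterByExpr, TMM factors, a robust quasi-likelihood fit without a block, a two-sided F test and Benjamini-Hochberg adjustment over 13120 genes at 0.05. Standard errors came from the F statistic. Alternatives were other size factors and filters, a non-robust fit, a prior count of 0.5, a replicate block, DESeq2 1.42.0, limma-voom (limma 3.58.1) and each library left out in turn. The procedure was tested on simulated data, with 50 genes at each fold change. It called 50% of 1.5-fold, 72% of 2-fold and 96% of 4-fold rises. Of falls to 0.5-fold it called 70%, and of unchanged genes 0.141%. Library pairs within a group differed beyond counting noise. The mean chi-square over genes ran from 6.03 for KC_EV 2 and KC_EV 3 to 81.1 for KC_Epo 1 and KC_Epo 2.

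The 8 genes and all lists were chosen with earlier results of these data known. The 8 are always reported. From each list only the 4 genes with the smallest adjusted p were open to naming by rule, not all of which are named, and other genes are given as examples chosen after their values were seen. From the list of B cell identity genes 1 gene is not reported here and enters no count of that list.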

Additional observations from a re-analysis of the deposited data

How the results depend on the processing

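Jchain and Mzb1 kept their direction and their call in all 17 alternatives run for each, with log2 fold changes of 1.95 to 2.53 and 0.78 to 1.07. Leaving out each library in turn gave 2 to 5 called transcripts against 3, and 2728 to 4557 called genes against 4234. Genes called higher made up 52.4% of calls. Upper quartile factors gave 40.6% and unscaled library sizes 24.8%, the median log2 fold change over all genes then being -0.0667 and -0.1632. Deviations of same-numbered libraries correlated at -0.14, -0.19 and 0 between groups, and 0 libraries correlated best with their own number. With a replicate block 3358 genes and 3 of the transcripts were called, Fcrla and Cd300c2 did not pass (adjusted p = 0.0701 and 0.0675), and there were 1 rise among hepatocyte markers, 5 falls among endothelial markers and 3 falls among surface genes shared with macrophages. Levels under 1 CPM, as for Tnfrsf17, rest on few reads, and a list gene that did not pass is not shown to be unchanged.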
